A study of Caenorhabditis elegans with 8 samples.

Results

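daf-16 and 9 genes listed as lying downstream of DAF-16 were followed through 8 RNA-seq libraries of whole young adult Caenorhabditis elegans. The 10 genes were chosen by their WormBase symbols among 20182 genes in the deposited mRNA count table: daf-16 itself, the induced genes sod-3, mtl-1, pud-3, pud-4, ttr-44, dod-3 and dod-6, and the repressed genes dod-17 and nuc-1. The set was chosen with earlier results of these data known. All 10 had enough counts to be tested, among 15321 genes tested in all. The series, by its title, looked for targets of REGE-1, a protein with an RNase domain. The 4 groups were N2 (the laboratory wild type) fed double-stranded RNA against rege-1, N2 fed a mock control, glp-1 animals fed double-stranded RNA against rege-1, and glp-1 animals fed the mock control, with 2 libraries each. All were synchronized as larvae, fed from the first larval stage and frozen as young adults. The labels give 25 °C for glp-1 and no temperature for N2, so strain and temperature cannot be told apart if N2 grew at another one, and the glp-1 allele is not named.

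DAF-16 is the FOXO transcription factor of the worm. When the insulin receptor DAF-2 is active, a kinase cascade of AGE-1, PDK-1 and AKT-1 phosphorylates DAF-16 and keeps it out of the nucleus, and when signalling falls DAF-16 enters the nucleus and raises genes of stress resistance and metabolism while other genes fall. Animals without germline stem cells, such as glp-1 mutants at the restrictive temperature, live longer in a way that needs DAF-16 in the intestine. REGE-1 is an RNase that lowers the mRNA of the transcription factor gene ets-4, and GLP-1, a Notch receptor, maintains the germline stem cells.

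The libraries held from 26127079 to 30093967 mRNA counts. The targeted gene went against its label: rege-1 had 101.04 and 78.4 CPM (counts scaled to a fixed library total) in the N2 libraries labelled rege-1 RNAi, against 13.9 and 13.8 CPM in N2 mock, and 67.8 and 65.3 CPM in the glp-1 libraries labelled rege-1 RNAi, against 15.3 and 15.6 CPM in glp-1 mock. Every direction of the RNAi comparisons therefore rests on the labels. The known target ets-4, whose mRNA REGE-1 lowers, was higher with the RNAi label, by log2 2.25 in N2 and 1.93 in glp-1. It had 78.4 and 109 CPM in N2 RNAi-labelled libraries, against 18.1 and 21.2 CPM in N2 mock. In glp-1 it had 70.5 and 80.3 CPM in RNAi-labelled libraries, against 20.3 and 19.4 CPM in mock. Whether REGE-1 activity fell was not tested. Of 19 germline markers, none was at 0, and their summed level was 4720 to 4911 CPM in glp-1 mock, against 5541 to 6756 CPM in N2 mock, and 4961 to 5108 CPM in glp-1 RNAi-labelled libraries, against 6476 to 6784 CPM in N2 RNAi-labelled ones. Under mock all 19 were lower by value in glp-1 than in N2, at log2 -1.09 to -0.0035 (median -0.31). With the RNAi label they ran from -0.71 to 0.25 (median -0.38). The glp-1-labelled libraries thus held germline transcripts at somewhat lower levels than N2. Their presence at such levels goes against the loss of germline that the label implies at the restrictive temperature. The labels do not say that replicates were separate cultures, so p-values measure the spread between these libraries, which may be technical. Replicates differed by more than counting allows: the chi-square between them, averaged over genes, was 27.4 for N2 RNAi, 36.4 for N2 mock, 53.9 for glp-1 RNAi and 3.36 for glp-1 mock, where counting alone gives 1. In whole animals, fewer cells of a type and less RNA per cell cannot be told apart.

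The mRNA of daf-16 did not pass the test in either RNAi comparison, while 5 of the 9 downstream genes fell in N2 libraries labelled rege-1 RNAi and 7 fell in glp-1 libraries with that label. The members that fell included induced genes (mtl-1, pud-3, pud-4, ttr-44) and the repressed gene nuc-1 in both strains. dod-3 and the repressed gene dod-17 passed the test in glp-1 and not in N2. dod-3, counted among the 7, passed the filter on low counts only through its mock libraries. No member rose with the RNAi label. The test throughout was edgeR's quasi-likelihood F test with Benjamini-Hochberg adjustment over all genes tested, two-sided, with a threshold of 0.05. It called 4.79% of all genes in N2, 3.13% as higher and 1.66% as lower, and 2.7% in glp-1, 1.89% as higher and 0.816% as lower. The median log2 change of the 10 members was -1.63 in N2 and -1.17 in glp-1, beside -0.01 and -0.0046 over all genes. The members were chosen with earlier results of these data known. These counts and medians therefore describe the chosen set and say nothing of DAF-16 targets in general. The 5 calls in N2 held under each of the 16 alternative settings tried. The count in glp-1 was 4 without glp-1 mock replicate 1 and 2 without glp-1 mock replicate 2.

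**Figure D1:**
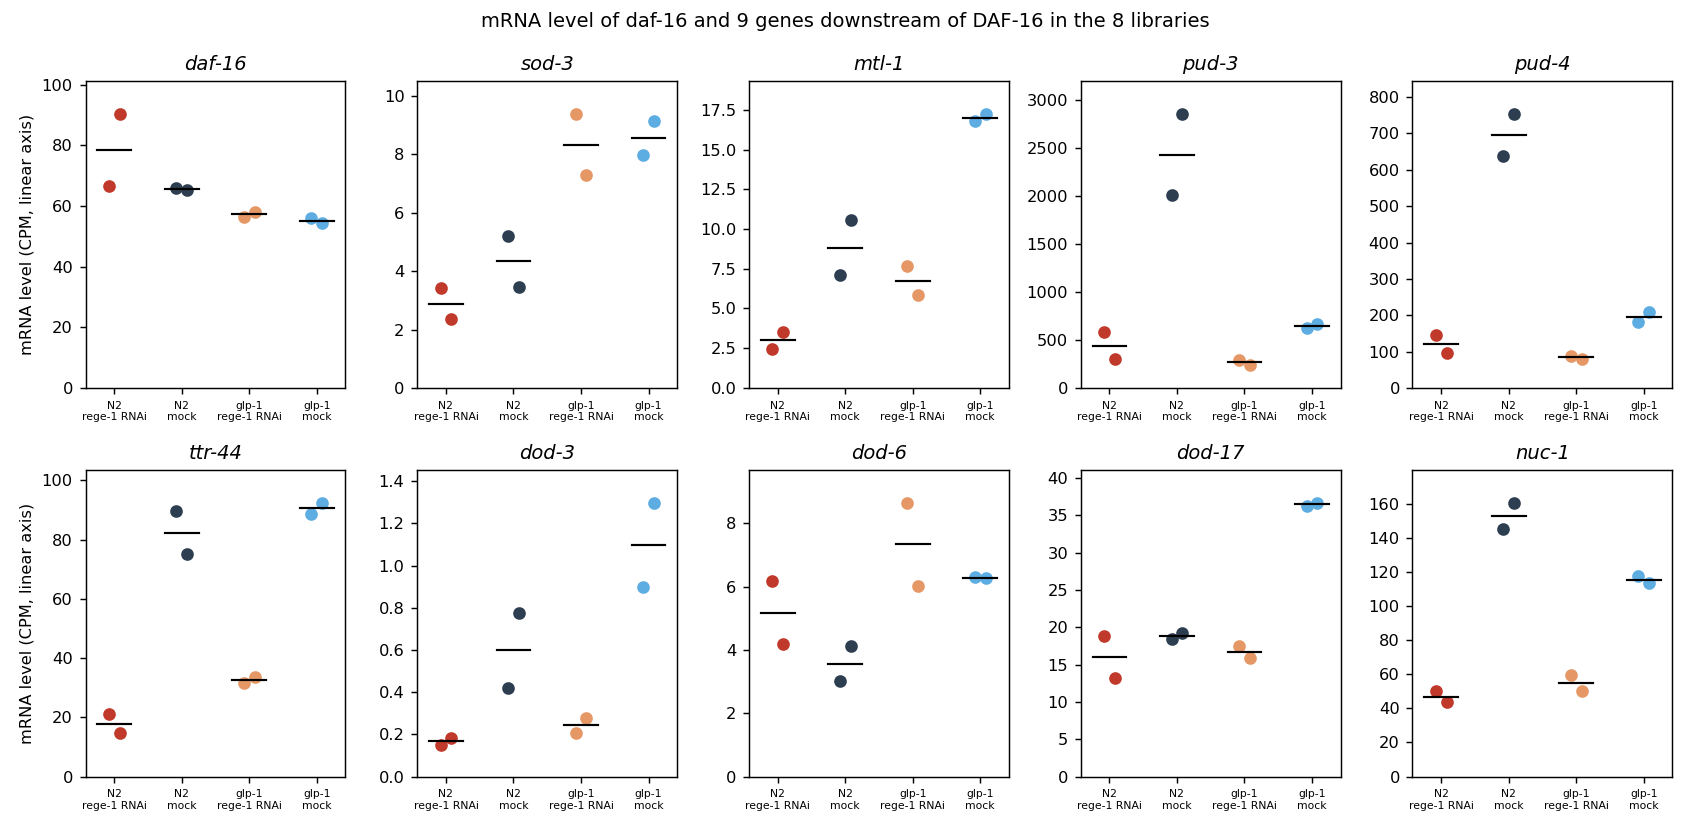
mRNA level in CPM (linear axes from 0, each with its own range) of daf-16 and 9 downstream genes in the 8 libraries. Points are libraries and bars are group means of 2 libraries. The daf-16 panel is the flattest apart from 1 N2 RNAi-labelled library at 90.4 CPM, while pud-3, pud-4, ttr-44 and nuc-1 lie lower in the RNAi-labelled libraries than in mock in each strain.

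daf-16 (WBGene00000912) spans chromosome I from 10750498 to 10776703 on the forward strand in Ensembl's WBcel235 annotation, with 11 coding transcripts that these gene-level counts do not separate. Its level was 66.45 and 90.39 CPM in N2 RNAi-labelled libraries, against 66.05 and 65.18 CPM in N2 mock. In glp-1 it was 56.5 and 58.0 CPM in RNAi-labelled libraries, against 55.9 and 54.3 CPM in mock. A single N2 RNAi-labelled library thus stood above the rest, and the other N2 RNAi-labelled library lay beside N2 mock. The log2 change with the RNAi label was 0.26 in N2 (SE 0.15, adjusted p = 0.536) and 0.06 in glp-1 (SE 0.15, adjusted p = 0.932). The group means ran from 78.4 ± 16.9 CPM in N2 RNAi-labelled libraries through 65.6 ± 0.613 in N2 mock and 57.2 ± 1.11 in glp-1 RNAi-labelled libraries to 55.1 ± 1.19 in glp-1 mock (SD, n = 2 each). Within each strain the neighbours in this order did not pass the test. N2 mock and glp-1 RNAi were farther apart than their spread, a pair that was not tested.

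The glp-1 libraries were lower in daf-16 than the N2 libraries by less than the test could call. The log2 difference, glp-1 over N2, was -0.25 under mock (SE 0.15, adjusted p = 0.300) and -0.45 with the RNAi label (SE 0.15, adjusted p = 0.0520). The value with the RNAi label lay at the threshold: DESeq2 gave an adjusted p of 0.0393, edgeR with DESeq2's size factors 0.0441 and edgeR with no filter on low counts 0.0464. With each library left out, the difference ran from -0.65 to -0.22. The -0.65 came without N2 RNAi replicate 1, which left only the high library in that group. Over all alternatives its adjusted p ran from 0.0193 to 0.417. Per kilobase of coding length, daf-16 stood between the percentiles 59.4 and 65.1 of all genes tested in the 4 groups.

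daf-16 was one of 2 members that passed the filter on low intron counts, and intron counts come from RNA that is not yet spliced. Of the intron table, daf-16 took 689 and 876 CPM in N2 RNAi-labelled libraries, against 659.9 and 666 CPM in N2 mock, and 913 and 868 CPM in glp-1 RNAi-labelled libraries, against 1042 and 865 CPM in glp-1 mock. The N2 library that was high in mRNA was also the higher of its group in introns. The intron log2 change was 0.24 in N2 (SE 0.27, adjusted p = 0.983) and -0.10 in glp-1 (SE 0.27, adjusted p = 0.993). The mRNA change beyond the intron change was 0.15 in glp-1 (SE 0.24, adjusted p = 0.999) and 0.000249 in N2 (SE 0.22, adjusted p = 0.9997). In WBcel235, 6 short non-coding RNA genes lie within daf-16 on the opposite strand, and whether counting used the strand is not given in the sources used here.

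**Figure D2:**
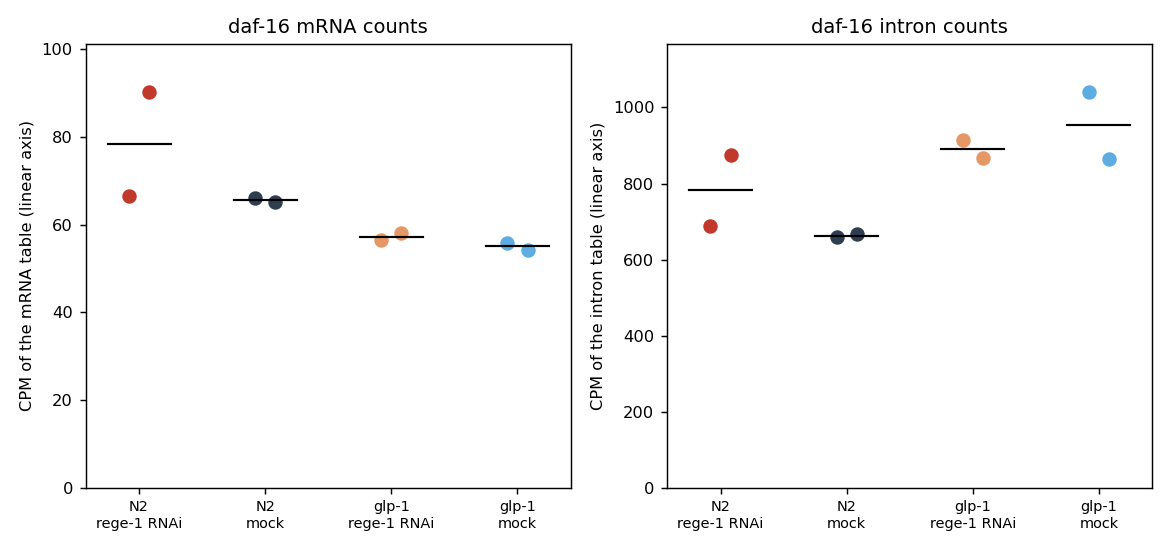
daf-16 in the mRNA table (left) and in the intron table (right), in CPM of each table, linear axes from 0. Points are libraries and bars are means of 2 libraries. N2 RNAi-labelled replicate 2 is the highest N2 library in both panels, at 90.4 and 876 CPM. The glp-1 libraries lie below N2 in mRNA and, but for 1 N2 library at 876 CPM, above N2 in introns.

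By Pearson correlation of log2 CPM over the 8 libraries, the genes most like daf-16 were adm-2 (r = 0.98), F31D4.2 (r = 0.98) and F13B12.6 (r = 0.98). The genes most like sod-3 were W06A7.4, F58D5.7 and B0454.5 (r from 0.989 to 0.996). The 8 points share their libraries and fall into 4 groups, so these values describe likeness of pattern only.

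sod-3 and mtl-1 are the members most widely used as readouts of DAF-16 activity. sod-3 (WBGene00004932, X:17092753-17094306, forward strand) encodes a mitochondrial manganese superoxide dismutase. It had 3.41 and 2.35 CPM in N2 RNAi-labelled libraries, against 5.22 and 3.46 CPM in N2 mock, and the nearest libraries of the groups almost touched. In glp-1 it had 9.39 and 7.29 CPM in RNAi-labelled libraries, against 7.996 and 9.157 CPM in mock, and the groups overlapped. Neither change passed the test, at log2 -0.60 in N2 (SE 0.27, adjusted p = 0.369) and -0.04 in glp-1 (SE 0.24, adjusted p = 0.972). The gene overlaps C08A9.3 on the opposite strand over 547 bases in WBcel235, so its counts are uncertain if strand was not used.

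mtl-1 (WBGene00003473, V:6691371-6691863, reverse strand), a metallothionein that binds metal ions, fell in both strains. Its level was 2.47 and 3.52 CPM in N2 RNAi-labelled libraries, against 7.08 and 10.6 CPM in N2 mock, and 7.65 and 5.84 CPM in glp-1 RNAi-labelled libraries, against 16.8 and 17.2 CPM in glp-1 mock. No RNAi-labelled library reached the lowest mock library of its strain. The log2 change was -1.55 in N2 (SE 0.26, adjusted p = 0.00326) and -1.33 in glp-1 (SE 0.24, adjusted p = 0.00857). The call in glp-1 was lost when either glp-1 mock library was left out (adjusted p = 0.0709 for replicate 1 and 0.0906 for replicate 2).

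pud-3 and pud-4, from a family named for proteins that are more abundant in daf-2 mutants, were the most abundant members per length and, in N2, those with the largest falls. They lie head to head on chromosome V in WBcel235, pud-3 (WBGene00017501) at V:2324634-2325152 on the reverse strand and pud-4 (WBGene00017498) at V:2326678-2327282 on the forward strand, with 1525 bases between them. pud-3 had 585 and 296 CPM in N2 RNAi-labelled libraries, against 2003 and 2850 CPM in N2 mock, and 289 and 241 CPM in glp-1 RNAi-labelled libraries, against 625 and 664 CPM in glp-1 mock. Its log2 change was -2.46 in N2 (SE 0.29, adjusted p = 0.000241) and -1.28 in glp-1 (SE 0.28, adjusted p = 0.0290). The groups did not overlap in either strain.

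pud-4 had 147 and 96.5 CPM in N2 RNAi-labelled libraries, against 638 and 754 CPM in N2 mock. In glp-1 it had 88.7 and 80.1 CPM in RNAi-labelled libraries, against 181 and 208 CPM in mock. Its log2 change was -2.52 in N2 (SE 0.20, adjusted p = 1.28e-05) and -1.21 in glp-1 (SE 0.20, adjusted p = 0.00459). In N2, 0.124% of all genes tested had a lower log2 change than pud-4. The genes most like pud-4 over the 8 libraries were its neighbour pud-3 (r = 0.99), gsto-2 (r = 0.99) and pycr-1 (r = 0.98).

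The glp-1 calls of this gene pair were less firm than those in N2. The pud-3 call ended when any glp-1 library was left out (adjusted p = 0.258 without RNAi replicate 1, 0.135 without RNAi replicate 2, 0.125 without mock replicate 1 and 0.188 without mock replicate 2), when N2 mock replicate 1 (0.0629) or 2 (0.0621) was left out, and with no filter on low counts (0.0581). The pud-4 call ended without glp-1 mock replicate 2 (adjusted p = 0.0728). The family has other members: pud-1.1, pud-1.2 and 1 of the 2 identifiers named pud-2.2 were at 0 in all 8 libraries, and the other had 0 to 8 counts. How reads matching several genes were counted is not given in the sources used here, and how far the sequences of these genes match was not examined, so the levels of pud-3 and pud-4 are uncertain to that extent. The coding and intron lengths deposited for pud-3 add up to 2194 bases, against a gene span of 519 bases in WBcel235, so the counted model was longer than the current one.

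ttr-44 (WBGene00008341, V:13529545-13530744, reverse strand), of the transthyretin-like family, fell in both strains. The gene overlaps R11G10.3 on the opposite strand over 191 bases in WBcel235, so its counts are uncertain if strand was not used. It had 21.01 and 14.8 CPM in N2 RNAi-labelled libraries, against 89.6 and 75.0 CPM in N2 mock, and 31.5 and 33.5 CPM in glp-1 RNAi-labelled libraries, against 88.5 and 92.5 CPM in glp-1 mock. Every RNAi-labelled library lay below every mock library of either strain. The log2 change was -2.20 in N2 (SE 0.17, adjusted p = 9.42e-06) and -1.48 in glp-1 (SE 0.16, adjusted p = 0.000288), and both calls held under all 16 alternatives. ttr-44 also had intron counts, 4 and 7 in N2 RNAi-labelled libraries against 6 and 3 in N2 mock, and 3 and 5 in glp-1 RNAi-labelled libraries against 23 and 15 in glp-1 mock. Its intron log2 change was 0.29 in N2 (SE 0.76, adjusted p = 0.9997) and -2.07 in glp-1 (SE 0.67, adjusted p = 0.313), and its mRNA change beyond introns was -2.51 in N2 (SE 0.71, adjusted p = 0.592) and 0.63 in glp-1 (SE 0.60, adjusted p = 0.999).

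With edgeR, 0 of the 2 members tested passed in introns, where 1.07% of 5042 genes were called in N2 and 0.694% in glp-1, and 0 passed in mRNA beyond introns, where 0.04% of 4999 genes were called in N2 and 0% in glp-1. At an unadjusted p under 0.05, ttr-44 alone passed, for introns in glp-1 and for mRNA beyond introns in N2, and DESeq2 on introns called 0 as well. ttr-44 passed the filter on low intron counts only through its glp-1 mock libraries, at 23 and 15 counts. That favoured a fall in glp-1 in advance, so no conclusion is drawn from its glp-1 intron values. Its N2 values rested on 3 to 7 intron counts per library, too few to compare. The other 8 members had at most 12 intron counts in any library, too few to compare.

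dod-3 and dod-6 are small genes named for being downstream of daf-16. dod-3 (WBGene00016052, V:2730622-2731098, reverse strand) was the least abundant member, with 4 and 5 counts in N2 RNAi-labelled libraries against 12 and 20 in N2 mock, and 6 and 8 counts in glp-1 RNAi-labelled libraries against 29 and 40 in glp-1 mock. The RNAi-labelled libraries were the lower ones in each strain. Its log2 change was -1.80 in N2 (SE 0.55, adjusted p = 0.109) and -2.16 in glp-1 (SE 0.45, adjusted p = 0.0247). The glp-1 call ended without glp-1 RNAi replicate 1 (adjusted p = 0.213), mock replicate 1 (0.0660) or mock replicate 2 (0.293), with DESeq2 (0.0583), and when only the compared groups were fitted (0.0580).

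dod-6 (WBGene00011869, III:10197716-10198352, forward strand) did not share this direction. It had 6.18 and 4.18 CPM in N2 RNAi-labelled libraries, against 3.01 and 4.12 CPM in N2 mock, and 8.66 and 6.01 CPM in glp-1 RNAi-labelled libraries, against 6.29 and 6.27 CPM in glp-1 mock. The glp-1 groups overlapped, and the nearest libraries of the N2 groups almost touched. The log2 change was 0.54 in N2 (SE 0.27, adjusted p = 0.431) and 0.22 in glp-1 (SE 0.25, adjusted p = 0.807).

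Of the repressed members, nuc-1 fell in both strains and dod-17 in glp-1, the direction of the induced genes that fell. nuc-1 (WBGene00003828, X:9539905-9542329, forward strand) encodes a DNase of the DNase II type that degrades DNA of dead cells and of food bacteria in the gut. It had 50.1 and 43.6 CPM in N2 RNAi-labelled libraries, against 145 and 161 CPM in N2 mock, and 59.6 and 50.4 CPM in glp-1 RNAi-labelled libraries, against 118 and 113 CPM in glp-1 mock. The log2 change was -1.71 in N2 (SE 0.14, adjusted p = 1.47e-05) and -1.07 in glp-1 (SE 0.14, adjusted p = 0.000824), and both calls held under all 16 alternatives.

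dod-17 (WBGene00010745, IV:12976303-12978343, forward strand), which encodes a protein with a CUB-like domain, differed between mock and RNAi-labelled libraries of glp-1. It had 18.9 and 13.2 CPM in N2 RNAi-labelled libraries, against 18.4 and 19.2 CPM in N2 mock, and the groups overlapped. In glp-1 it had 17.5 and 15.9 CPM in RNAi-labelled libraries, against 36.2 and 36.7 CPM in mock, with no overlap. The log2 change was -0.23 in N2 (SE 0.18, adjusted p = 0.701) and -1.12 in glp-1 (SE 0.17, adjusted p = 0.00325). The glp-1 call ended without glp-1 mock replicate 2 (adjusted p = 0.0528).

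**Figure D3:**
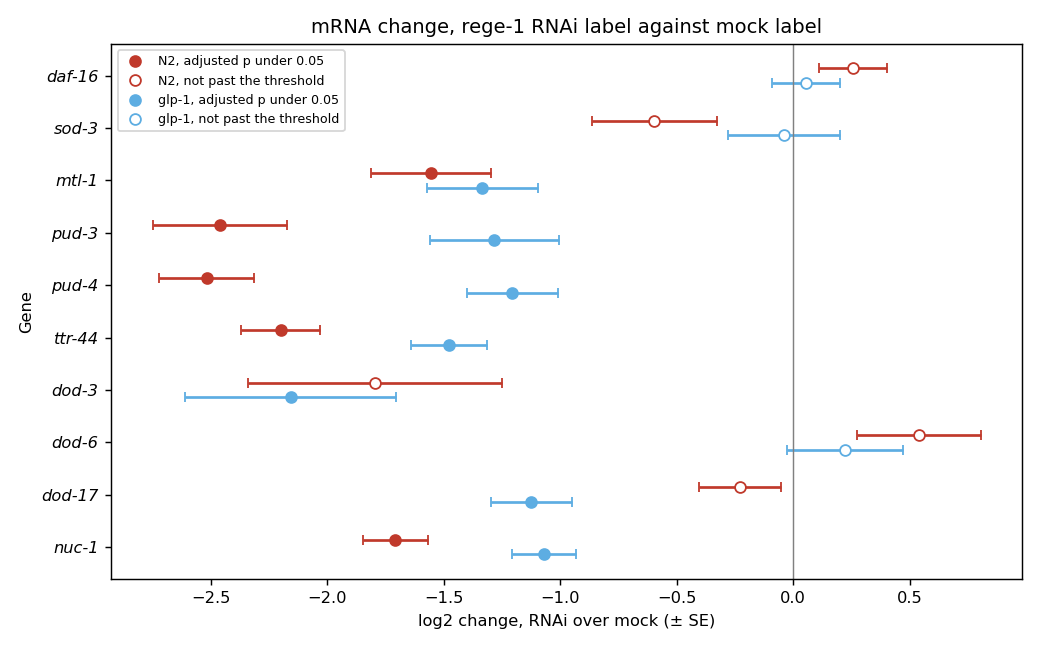
log2 change of mRNA, RNAi label over mock label, with its SE, for the 10 members in N2 and glp-1. Filled points had an adjusted p under 0.05. pud-3 and pud-4 lie near -2.5 in N2 and near -1.2 in glp-1, and daf-16, sod-3 and dod-6 have open points in both strains.

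Whether the RNAi change itself differed between the strains was tested as an interaction, glp-1 change minus N2 change. edgeR called 0 of the 10 members, with 0.0261% of all genes called. At an unadjusted p under 0.05 there were 5 members, beside 828 of all 15321 genes tested. limma on the deposited log2 values also called 0, and DESeq2 called 1. The member with the lowest p was pud-4, at a difference of 1.31 (SE 0.27, adjusted p = 0.251), which DESeq2 put at an adjusted p of 0.00351. Over all alternatives the adjusted p of pud-4 ran from 0.00351 to 0.9997. pud-3 differed by 1.18 (SE 0.39, adjusted p = 0.817), ttr-44 by 0.72 (SE 0.23, adjusted p = 0.799) and nuc-1 by 0.64 (SE 0.19, adjusted p = 0.773), each with a smaller fall in glp-1. dod-17 differed by -0.89 (SE 0.25, adjusted p = 0.743), with the larger fall in glp-1. Without glp-1 RNAi replicate 2 the nuc-1 difference passed (adjusted p = 0.0492), the lowest value over its alternatives, of which the highest was 0.9999. The calls made in 1 strain alone, of dod-3 and dod-17, are therefore not shown to differ between the strains.

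Between the strains under mock, 5 members were called, 3 higher in glp-1 and 2 lower, where 9.73% of all genes were called, 6.49% higher and 3.24% lower. sod-3 rose by 0.98 on the log2 scale (SE 0.25, adjusted p = 0.0334), mtl-1 by 0.95 (SE 0.23, adjusted p = 0.0276) and dod-17 by 0.96 (SE 0.17, adjusted p = 0.00598), glp-1 over N2. pud-3 fell by 1.91 (SE 0.28, adjusted p = 0.00145) and pud-4 fell by 1.84 (SE 0.20, adjusted p = 0.000130). The induced genes thus went in both directions, and so did the 2 repressed genes by value, with nuc-1 at -0.41 (adjusted p = 0.0846). The remaining values were 0.14 for ttr-44 (adjusted p = 0.629), 0.88 for dod-3 (0.179) and 0.82 for dod-6 (0.0728), none past the threshold.

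The pud-3 and pud-4 differences held under all alternatives, whereas the 3 higher calls ended when single libraries were left out. The sod-3 call ended without any 1 of the 4 libraries compared (adjusted p from 0.0502 to 0.227), and its log2 difference was 1.31 with N2 mock replicate 1 left out and 0.72 with replicate 2 left out. The mtl-1 call ended without N2 mock replicate 1 (0.174) or glp-1 mock replicate 1 (0.153) or 2 (0.184), and after correction for coding length (0.0618). The dod-17 call ended without the same 3 libraries (0.0635, 0.0541 and 0.0671). With any of these 3 libraries left out, the count of members called was 2. Members near the threshold passed under other settings: nuc-1 as lower under 4 of the 16 alternatives (lowest adjusted p = 0.0282) and dod-6 as higher under 5 (lowest adjusted p = 0.0302).

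With the RNAi label, 3 members were higher in glp-1 than in N2 and 0 were lower, where 18.1% of all genes were called, 10.6% higher and 7.54% lower. sod-3 rose by 1.53 (SE 0.26, adjusted p = 0.00387), mtl-1 by 1.17 (SE 0.26, adjusted p = 0.0135) and ttr-44 by 0.86 (SE 0.17, adjusted p = 0.00787). pud-3 was at -0.73 (SE 0.27, adjusted p = 0.0826) and pud-4 at -0.53 (SE 0.19, adjusted p = 0.0796). DESeq2 called 6 members here, adding pud-3 (0.0198), pud-4 (0.0353) and daf-16 as lower. After correction for coding length, pud-3 (-0.93, adjusted p = 0.0322) and pud-4 (-0.86, adjusted p = 0.00378) also passed as lower, as did pud-3 without N2 RNAi replicate 2 (-1.15, adjusted p = 0.0256). The sod-3 (0.0524) and ttr-44 (0.0869) calls ended without N2 RNAi replicate 2, and the mtl-1 call without N2 RNAi replicate 1 (0.0642) or glp-1 RNAi replicate 1 (0.0756), and also after correction for coding length (0.0617). The share of all called genes that were higher in glp-1 depended on the setting. With the RNAi label it was 58.4%, against 82.6% when libraries were scaled by size alone, 82.2% with limma, 48.2% with DESeq2 and 40.2% without glp-1 RNAi replicate 2. Under mock it was 66.7%, and over the alternatives it ran from 53.3% without glp-1 RNAi replicate 2 to 85.0% with limma.

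**Figure D4:**
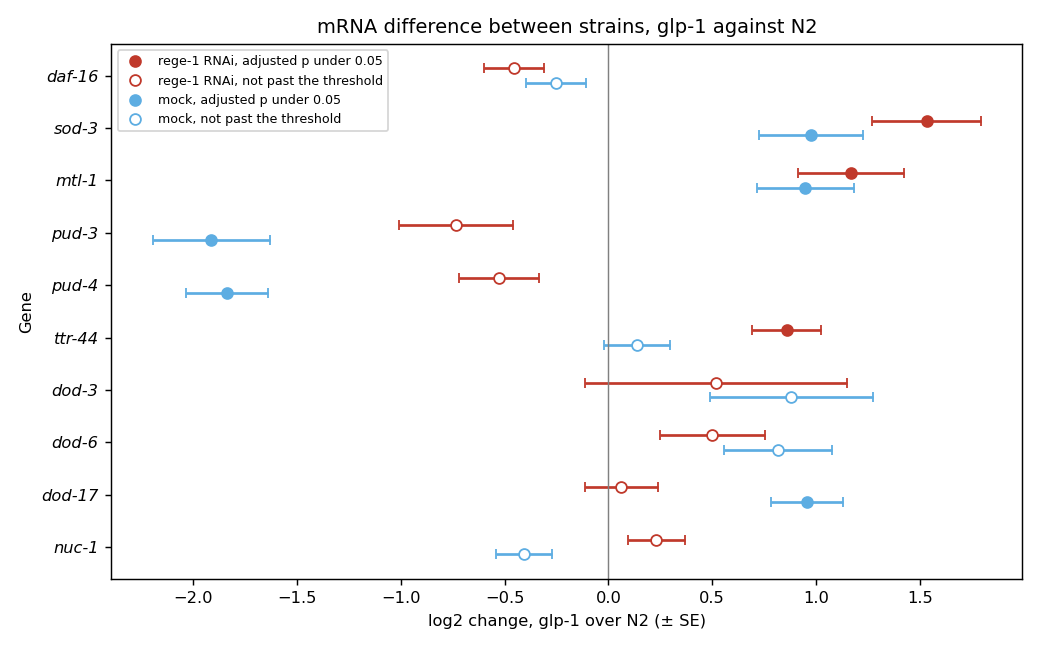
log2 difference of mRNA, glp-1 over N2, with its SE, for the 10 members in RNAi-labelled and in mock libraries. Filled points had an adjusted p under 0.05. sod-3 and mtl-1 lie to the right in both and pud-3 and pud-4 to the left, farther under mock (-1.91 and -1.84) than with the RNAi label (-0.73 and -0.53).

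The members span the whole range of mRNA levels. Per kilobase of coding length, pud-3 stood at percentile 98.8 of all genes tested in N2 RNAi-labelled libraries, against 99.9 in N2 mock, and at 97.9 in glp-1 RNAi-labelled libraries, against 99.3 in glp-1 mock. ttr-44 stood at percentile 69.4 in N2 RNAi-labelled libraries, against 94.0 in N2 mock, and nuc-1 at 70.99, against 91.7. dod-3 was near the lower end, at 8.38 against 23.9. With the RNAi label in N2, pud-3 thus stayed among the most abundant mRNAs, while ttr-44 and nuc-1 lay nearer the middle of the range. Of the 10 members, 5 lie on chromosome V.

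The plot of gene lists also covers genes that act upstream of DAF-16 or beside it. Over all genes tested, 4.79% were called in N2 and 2.7% in glp-1. The counts in this and the following lists were not tested against these shares. Of 7 tested insulin-like peptides, 1 rose in glp-1 with the RNAi label: ins-7, an agonist of DAF-2 that DAF-16 is known to repress, at log2 1.95 (SE 0.39, adjusted p = 0.0190). Its level was 16.03 and 11.8 CPM in glp-1 RNAi-labelled libraries, against 3.84 and 3.38 CPM in glp-1 mock, and in N2 it was 16.23 and 5.73 CPM in RNAi-labelled libraries, against 3.43 and 4.55 CPM in mock (log2 1.46, SE 0.39, adjusted p = 0.0616). edgeR called 0 of the 7 in N2, where 1 had an unadjusted p under 0.05, DESeq2 called 1 and limma 0. Of all 15321 genes tested, 2026 in N2 and 1591 in glp-1 had an unadjusted p under 0.05, the background for such counts in these lists. Of the 12 genes of the insulin receptor and its kinase cascade, sgk-1, a kinase that acts beside AKT, rose in N2 (0.65, SE 0.13, adjusted p = 0.0114) and had 0.45 in glp-1 (adjusted p = 0.126). The receptor gene daf-2 had 0.19 in N2 and -0.04 in glp-1. In glp-1, 0 of the 12 passed, 2 had an unadjusted p under 0.05, and DESeq2 and limma called 0.

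Of 20 tested partners and regulators of DAF-16, 1 rose in N2, pqm-1 (1.34, SE 0.30, adjusted p = 0.0257), a zinc finger factor that binds another class of daf-2 responsive genes. It had 20.8 and 41.7 CPM in N2 RNAi-labelled libraries, against 9.29 and 15.5 CPM in N2 mock, and 25.6 and 31.02 CPM in glp-1 RNAi-labelled libraries, against 19.5 and 19.8 CPM in glp-1 mock (0.53, adjusted p = 0.594). In glp-1 edgeR called 0 of the 20, and 0 had an unadjusted p under 0.05, as with DESeq2 and limma. Of 8 tested factors of germline-loss longevity, such as kri-1, tcer-1 and daf-12, edgeR, DESeq2 and limma called 0 in either strain, and 3 in N2 and 0 in glp-1 had an unadjusted p under 0.05. The medians of these 4 lists lay between -0.22 and 0.12 in N2 and between 0.00 and 0.11 in glp-1.

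**Figure D5:**
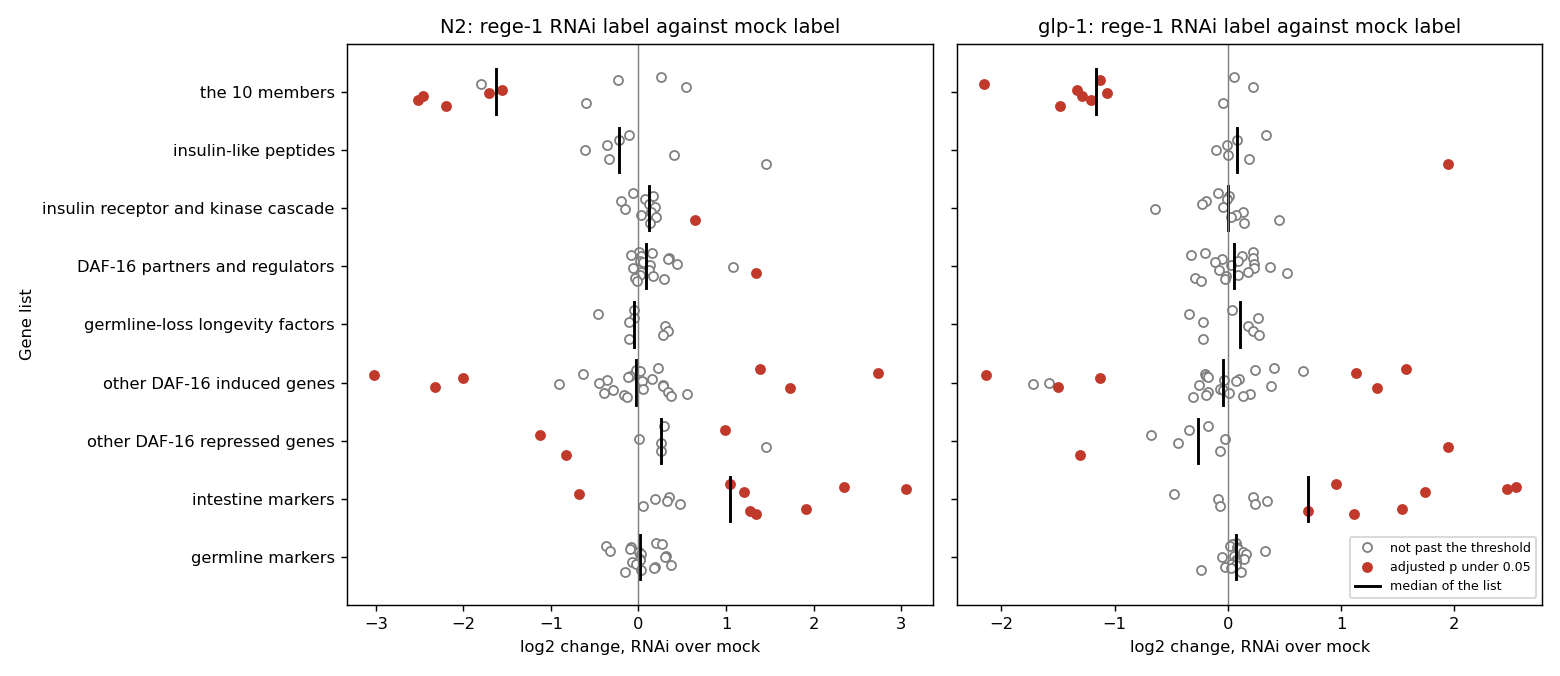
log2 change of mRNA, RNAi label over mock label, of each tested gene in 9 lists, in N2 (left) and glp-1 (right, with a narrower axis). Filled points had an adjusted p under 0.05 and bars are list medians. Most of the member list lies to the left of 0, at medians of -1.63 and -1.17. The other DAF-16 induced genes spread to both sides with medians near 0. Most intestine markers lie to the right, at medians of 1.04 and 0.71.

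Other genes that DAF-16 is known to induce did not follow the members as a list. Of 27 tested, 3 rose and 3 fell in N2, and the same 6 genes passed in glp-1 in the same directions. The 2 comparisons shared no library, but they came from the same fit with a shared estimate of the spread. The share of all genes that passed in both strains is not given here. The medians were -0.03 and -0.05. ftn-1, a ferritin, was at log2 -3.02 in N2 (SE 0.27, adjusted p = 2.76e-05) and -2.14 in glp-1 (SE 0.30, adjusted p = 0.00148). The lysozyme gene lys-7 was at -2.33 and -1.50 and the glutathione transferase gene gst-10 at -2.001 and -1.13. The genes that rose were fat-5, a fatty acid desaturase (2.73 in N2 and 1.13 in glp-1), the lysozyme gene lys-8 (1.73 and 1.32) and the peroxisomal catalase gene ctl-2 (1.38 and 1.57). Between the strains under mock, fat-7, another desaturase gene, rose by 1.87 (SE 0.29, adjusted p = 0.00190) and fat-5 by 2.40 (SE 0.24, adjusted p = 7.78e-05), glp-1 over N2. In all, 5 of the 27 rose and 1 fell, where 6.49% of all genes were called as higher and 3.24% as lower. These counts were not tested against those shares.

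Of 8 tested other repressed genes, 1 rose and 2 fell in N2, and 1 rose and 1 fell in glp-1. In N2 dod-22 rose (0.99, SE 0.25, adjusted p = 0.0440) while dod-23 (-1.13, SE 0.18, adjusted p = 0.00288) and the yolk protein gene vit-5 (-0.83, SE 0.17, adjusted p = 0.0142) fell. In glp-1 ins-7 rose, as given above, and vit-5 fell by 1.30 (SE 0.17, adjusted p = 0.00105). Of 11 other dod and pud identifiers, 5 could be tested, and the others of these, dod-18, dod-19 and dod-24, were between -0.23 and 0.29 in N2 and between -0.18 and 0.10 in glp-1, none past the threshold. edgeR and limma called 0 of the 5 in glp-1, 1 had an unadjusted p under 0.05, and DESeq2 called 1.

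None of the nearest relatives of the members that could be tested passed the test in either RNAi comparison, and whether their changes differ from those of the members was not tested. mtl-2, the other metallothionein gene, was at 0.05 in N2 (SE 0.16, adjusted p = 0.958) and -0.07 in glp-1 (SE 0.16, adjusted p = 0.922), beside -1.55 and -1.33 for mtl-1. The DNase II relatives of nuc-1 were at -0.60 (crn-6, adjusted p = 0.426) and -0.53 (crn-7, adjusted p = 0.131) in N2, and at -0.09 and 0.08 in glp-1. The superoxide dismutase genes sod-1, sod-2 and sod-4 lay between -0.17 and 0.16 in N2 and between 0.18 and 0.22 in glp-1, and sod-5 had too few counts for a test. edgeR, DESeq2 and limma called 0 of the 6 tested in either strain, and 1 in N2 and 0 in glp-1 had an unadjusted p under 0.05.

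Most intestine markers that passed the test moved with the RNAi label in the direction opposite to the members that fell. Of 13 markers, 7 rose and 1, cpr-6 (-0.68), fell in N2, and 7 rose and 0 fell in glp-1, where DESeq2 called 1 as lower. Their summed level was 13726 to 14648 CPM in N2 RNAi-labelled libraries, against 3438 to 3866 CPM in N2 mock, and 10745 to 12214 CPM in glp-1 RNAi-labelled libraries, against 3201 to 3455 CPM in glp-1 mock. None was at 0. The proteases asp-3 (3.06 in N2 and 2.46 in glp-1) and asp-1 (2.35 and 2.54) led the list and held much of these sums. In N2 RNAi-labelled replicate 1 they had 6112 and 4177 CPM, against 669 and 730 CPM in N2 mock replicate 1. In glp-1 RNAi-labelled replicate 1 they had 4870 and 4259 CPM, against 756 and 658 CPM in glp-1 mock replicate 1. The intestinal GATA factor gene elt-2 was at 0.35 (adjusted p = 0.370) and 0.22 (adjusted p = 0.680). Likewise elt-7, ges-1, ifb-2 and mtl-2 passed in neither strain. The part of these markers in the values of the members was not tested. Of the markers of germline (19), body wall muscle (7), hypodermis (7), neurons (8), pharynx (4) and sperm (5 tested of 11), edgeR and limma called 0 in either RNAi comparison, and DESeq2 called 0 but for 1 pharynx marker in N2. At an unadjusted p under 0.05 there were 5 germline, 3 neuron and 1 pharynx markers in N2 and 1 germline marker in glp-1. Between the strains, markers of several tissues passed the test, glp-1 over N2. Over all genes, 9.73% were called under mock, 6.49% higher and 3.24% lower. With the RNAi label 18.1% were called, 10.6% higher and 7.54% lower. The marker counts were not tested against these shares. Under mock these were 3 of the 19 germline markers, all lower and led by glh-1 (-1.09), the sperm marker fer-1 (1.05), the neuron markers rab-3 (0.93) and egl-21 (0.64), the intestine marker cpr-1 (-1.003), the body wall muscle marker myo-3 (-0.68) and the hypodermis marker rol-6 (-2.59). With the RNAi label they were 5 germline markers, all lower (glh-1, -0.71, gld-1, -0.58, oma-2, -0.55, oma-1, -0.48, and glh-4, -0.47), the intestine marker pept-1 (-0.88), the body wall muscle markers myo-3 (-0.75) and unc-27 (0.47), rol-6 (-2.33) and rab-3 (0.68). The part of these markers in the strain differences of the members was not tested.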

How the data were processed

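Total RNA of whole animals was sequenced in 8 libraries (ScriptSeq v2 kit, per the labels' protocols). The authors deposited raw counts per gene, with mRNA and introns in 2 tables, and log2 values of the mRNA counts scaled to a common library total plus a pseudocount of 8, a relation tested on the files. The counter, aligner, annotation, build and strand setting were not given in the sources used here. A gene name table gave symbols for 18778 of 20182 identifiers, and positions are from Ensembl's WBcel235 annotation.

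Counts were analysed in R 4.3.3 with edgeR 4.0.16. Genes were kept by filterByExpr (minimum count 10), TMM factors scaled the libraries, and a quasi-likelihood model (robust) of all 4 groups left 4 residual degrees of freedom. CPM use the TMM-scaled library sizes, and the scripts were tested on simulated data. The mRNA change beyond introns was an interaction term in a model of both tables with the library as a block.

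Named were the 10 members, rege-1, ets-4, other pud and dod genes, the nearest relatives, up to 4 genes per list and strain with the lowest p, and the 3 genes most like daf-16, sod-3 and pud-4 in pattern. fat-7, kri-1, tcer-1, daf-12, daf-2, elt-2 and glh-1 were named after their values were seen. The members and lists were chosen with earlier results of these data known, and 5 symbols sit in more than one list.

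Alternatives were no filter, DESeq2's size factors, library size alone, the compared groups only, a replicate block, DESeq2 1.42.0, limma 3.58.1 on the deposited log2 values, removal of each library's trend over coding length (the correction for coding length), and each library left out.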

Additional observations from a re-analysis of the deposited data

How the results depend on the processing

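A fit with a replicate block changed no count of members called: it gave 5 members called in N2, 7 in glp-1, 0 for their difference, 5 between strains under mock and 3 between strains with the RNAi label, and 0 in introns. The labels do not say whether the numbers pair the libraries. Same-numbered deviations correlated at 0.17 between the N2 groups and at -0.04 between the glp-1 groups. Across strains the values ran from -0.11 (N2 mock with glp-1 RNAi) to 0.07 (N2 RNAi with glp-1 RNAi). With 2 libraries per group, these values cannot settle whether a culture or day was shared. DESeq2 gave 1 member for the difference and 6 between strains with the RNAi label. With each library left out, the count was 5 throughout in N2, 2 to 7 in glp-1, 0 to 1 for the difference, 2 to 7 between strains under mock and 2 to 3 with the RNAi label. A group left with 1 library was taken to vary like the others, and the causes were not tested.

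No called member changed sign under any alternative. Values past no threshold changed sign as follows. With the coding length trend removed, the glp-1 over N2 difference was -0.0301 for ttr-44 under mock and -0.0241 for dod-17 with the RNAi label. With library size alone, daf-16 introns in glp-1 were at 0.0553, and daf-16 mRNA beyond introns was at -0.0127 in N2 and -0.0125 in glp-1. In N2 it was at -0.0438 with DESeq2's size factors and -0.0315 with no filter. Leaving out each library gave -0.0956 to 0.484 for the mtl-1 difference between strains' RNAi changes, -0.418 to 0.0174 for that of daf-16 and -0.854 to 0.0268 for that of dod-3; -0.509 to 0.0116 for dod-17 in N2; -0.175 to 0.346 for dod-17 between strains with the RNAi label; -0.0769 to 0.461 for dod-6 and -0.249 to 0.128 for sod-3 in glp-1; -0.251 to 0.722 for ttr-44 introns in N2; -0.227 to 0.0353 for daf-16 introns in glp-1; and -0.0374 to 0.00645 for daf-16 mRNA beyond introns in N2.

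Over all genes, the median log2 difference between strains was 0.0016 under mock and 0.021 with the RNAi label. It was 0.13 and 0.18 with library size alone, and 0.13 and 0.16 with limma on the deposited values. Genes called for the difference of RNAi changes numbered 4, and 8 with the replicate block, 11 with no filter, 12 with the length trend removed and 30 with DESeq2. With only the compared groups fitted, genes called were 2448 between strains under mock, against 1491, and 875 with the RNAi label, against 2774. With each library left out they were 423 to 822 in N2, against 734, 189 to 1454 in glp-1, against 414, 0 to 415 for the difference, 458 to 2304 between strains under mock, against 1491, and 517 to 4031 with the RNAi label, against 2774. Without glp-1 RNAi replicate 2, 390 genes were higher and 1064 lower in glp-1, against 289 and 125. Depth limits dod-3, with 4 to 40 counts per library, the introns of ttr-44, with 3 to 23 counts per library, and the introns of 8 other members.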
